A study of Mus musculus with 12 samples.

Results

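The p53 target genes described here are 32 mouse genes that respond to the transcription factor p53 or, in the case of Trp53 and Mdm4, form its core circuit. They were taken as the rows of the gene table whose symbol is one of 32 listed names, and all 32 were found among the 45777 genes of the table. The RNA came from mpkCCDc11 cells, an epithelial line of the mouse kidney cortical collecting duct, where vasopressin controls water reabsorption. There were 4 groups of 3 libraries each. The first received TAZ siRNA and dDAVP and the second TAZ siRNA and vehicle. The third received control siRNA and dDAVP and the fourth control siRNA and vehicle. TAZ is the Hippo pathway coactivator encoded by Wwtr1, and dDAVP is a vasopressin analogue that acts on the V2 receptor, given here at 1e-09 M to the basolateral side. All groups share the wild-type genotype in the labels, growth on filters and removal of serum and hormones for 24 h before treatment. The protocol lists 15 min, 30 min and 24 h of dDAVP for the series and does not say which applies to these libraries. Separate cultures within a group are not stated in the labels, and the p-values reflect only how far these libraries scatter, part of which may be technical.

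p53 is a tumour suppressor that is made continuously and removed by the ubiquitin ligase MDM2, itself the product of a p53 target gene. DNA damage and other stress release p53 from MDM2, and the targets it then raises slow the cell cycle, repair DNA, detoxify oxidants or start apoptosis. The mpkCCD lines derive from a mouse that carries the large T antigen of the virus SV40, a protein that binds p53, which limits these cells as a model of normal p53 control. The amount, modification and DNA binding of the p53 protein were not measured here, and several of the genes below also answer to other factors, such as CREB or the stress factors ATF4 and CHOP.

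Library totals ran from 45095331 to 61725339 estimated counts. Values per library are given as CPM, that is, counts scaled to the library total of the tested genes multiplied by its TMM normalisation factor. Wwtr1 averaged 116 ± 2.5 CPM with TAZ siRNA and vehicle, against 181 ± 4.4 CPM with control siRNA and vehicle (SD, n = 3 each). With dDAVP it averaged 114 ± 11 CPM with TAZ siRNA, against 166 ± 6.6 CPM with control siRNA, so the knockdown was partial in both treatments. Aqp2, the vasopressin-regulated water channel, averaged 34.7 ± 8.8 CPM with dDAVP and 0.34 ± 0.0034 CPM with vehicle under control siRNA. Under TAZ siRNA it averaged 11.0 ± 2.4 CPM with dDAVP and 0.048 ± 0.084 CPM with vehicle. Of 9 principal cell markers 8 reached 1 CPM, and 5 epithelial markers summed to between 3129 and 4083 CPM. That epithelial sum was 3577 to 3737 CPM with TAZ siRNA and dDAVP, 3143 to 3380 CPM with TAZ siRNA and vehicle, 3890 to 4083 CPM with control siRNA and dDAVP, and 3129 to 3270 CPM with control siRNA and vehicle. Under control siRNA, the keratin genes Krt8, Krt18 and Krt19 averaged 943, 1053 and 240 CPM with dDAVP, against 641, 663 and 139 CPM with vehicle. The other epithelial markers did not rise there. Cdh1 and Epcam averaged 1256 and 488 CPM with dDAVP, against 1268 and 505 CPM with vehicle. The part of the shift in the epithelial sum in the results below was not tested. Immune, endothelial and fibroblast markers summed to at most 4.52, 0.275 and 6.20 CPM, mostly Cd68 and Col1a1, with Cd3e, Kdr and Col3a1 at 0 in all libraries.

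All 32 genes passed the filter on low counts, but their levels spanned a wide range. TPM, a relative level corrected for transcript length, is used here only to compare genes with each other. Trp53, which encodes p53, had the highest level at a median of 308 TPM over the 12 libraries. Cdkn1a, which encodes the cell cycle inhibitor p21, followed at 181 TPM and Ei24, an endoplasmic reticulum protein gene, at 141 TPM. The ranges of these 3 genes did not overlap, at 278 to 322, 175 to 187 and 135 to 147 TPM. The next genes ran into one another. Bax, Mdm2, Mdm4, Perp and Ccng1 had medians of 87.4, 79.1, 76.7, 74.1 and 71.9 TPM, and each of their ranges overlapped the next. The lowest levels were those of 3 cell death genes. Fas, the receptor for Fas ligand, had a median of 1.11 TPM, Eda2r, a receptor of the tumour necrosis factor family, 0.15 TPM, and Trp53i11 0.12 TPM. Their counts per library were 26 to 65, 0 to 31 and 3 to 29, so fold changes of these 3 genes are imprecise.

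**Figure D1:**
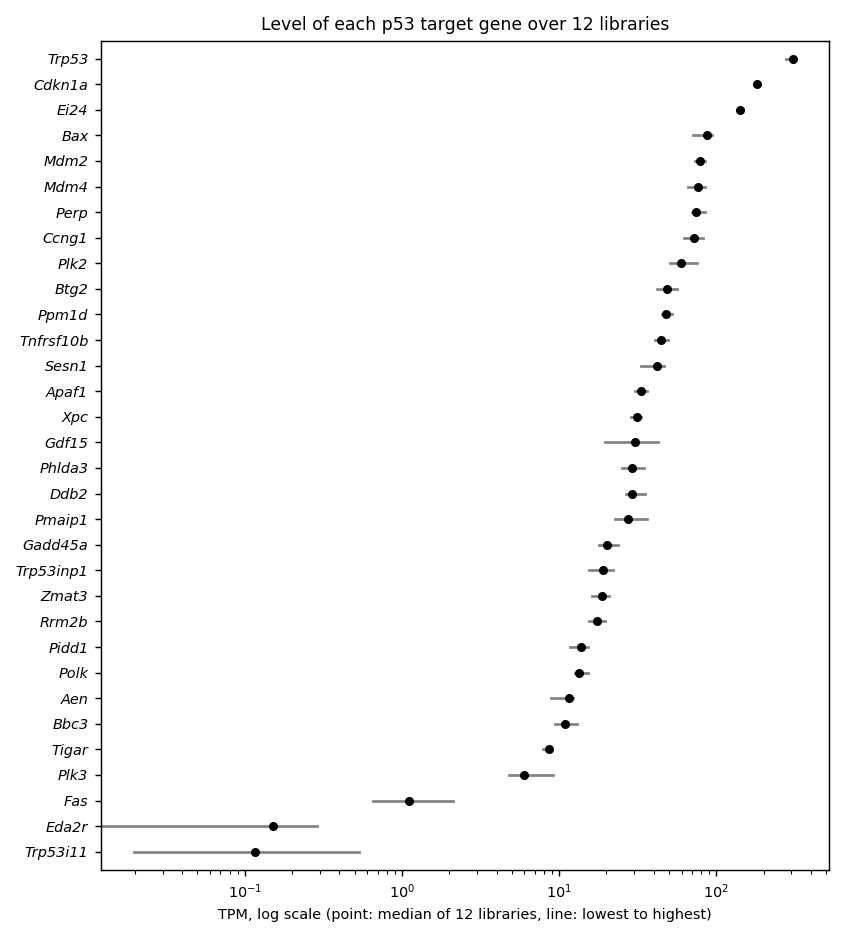
Level of each of the 32 genes in TPM on a log axis, with the median of the 12 libraries as a point and the line from the lowest to the highest library (the line of Eda2r runs off the left edge because 1 library is at 0). Trp53 and Cdkn1a stand at the top with medians of 308 and 181 TPM, and Fas, Eda2r and Trp53i11 stand apart at the bottom.

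p53 binds DNA as a tetramer at pairs of a consensus decamer. RefSeq promoter windows of GRCm38.p6, from 250 bases before to 50 bases after an annotated start, matched 24 of the 32 genes by symbol, and 7 of these have more than 1 window. Trp53inp1, Zmat3, Pmaip1, Tnfrsf10b, Perp, Xpc, Ddb2 and Rrm2b had no window. The p53 consensus decamer was searched on both strands. It stood in a window of 11 of the 24 genes (Aen, Bax, Ccng1, Cdkn1a, Ei24, Gadd45a, Mdm2, Polk, Ppm1d, Sesn1 and Trp53), against 9.55% of 27025 genes with windows. A pair of decamers at most 13 bases apart stood only in the window of the upstream Cdkn1a start among the 24 genes, and in 0.0740% of all genes. The cAMP response element TGACGTCA, the site of CREB, which protein kinase A activates downstream of the V2 receptor, stood in windows of 3 of the 24 genes (Btg2, Plk2 and Ppm1d) and in 2.03% of all genes. The TEAD motif GGAATG, through which TAZ reaches DNA, stood in 3 of the 24 (Eda2r, Gdf15 and Phlda3) and in 16.6% of all genes. These motifs were searched on both strands too, and a match is a description of letters and not of binding. The sequences that follow are a selection from genes that passed the test for dDAVP, with Cdkn1a added as the canonical p53 target. Aen, with a decamer, and Gdf15, with a TEAD motif, also passed and are not shown. The sequences are written 5′ to 3′ on the strand of the gene, with the match in capitals.
Btg2 (chr1:134079267-134079367, minus strand, cAMP response element): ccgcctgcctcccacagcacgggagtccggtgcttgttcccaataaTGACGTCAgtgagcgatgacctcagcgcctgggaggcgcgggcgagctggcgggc
Bax (chr7:45467044-45467144, minus strand, decamer): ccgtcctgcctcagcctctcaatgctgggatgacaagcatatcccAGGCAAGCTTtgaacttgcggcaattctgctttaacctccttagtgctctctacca
Ccng1 (chr11:40755416-40755516, minus strand, decamer): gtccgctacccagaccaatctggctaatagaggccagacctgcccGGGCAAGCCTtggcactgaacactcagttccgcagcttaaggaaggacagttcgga
Mdm2 (chr10:117710889-117710989, minus strand, decamer): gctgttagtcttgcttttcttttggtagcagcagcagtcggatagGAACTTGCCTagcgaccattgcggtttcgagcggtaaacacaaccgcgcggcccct
Sesn1 (chr10:41887221-41887321, plus strand, downstream start, decamer): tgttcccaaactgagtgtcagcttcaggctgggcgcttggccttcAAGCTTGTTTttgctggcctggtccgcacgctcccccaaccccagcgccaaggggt
Cdkn1a (chr17:29090872-29090972, plus strand, upstream start, pair of decamers): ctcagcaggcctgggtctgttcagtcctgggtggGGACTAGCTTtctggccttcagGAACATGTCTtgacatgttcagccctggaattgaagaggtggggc
The first letter of the match lay at -166 from the start in Btg2, -201 in Bax, -185 in Ccng1, -186 in Mdm2, -173 in Sesn1 and -73 in Cdkn1a. Only exact matches are in capitals. In Cdkn1a a stretch directly after the second decamer nearly matches the consensus and stays in lower case.

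With control siRNA, dDAVP moved a mixed group of p53 targets, some up and some down, while Cdkn1a and Trp53 did not pass the test. Of the genes that passed, Gdf15, a stress-induced secreted cytokine, rose most, by 74.1%. Btg2, an antiproliferative cofactor of mRNA decay, and Aen, an apoptosis-enhancing nuclease, each rose by 30.4%. Ccng1, Bax, Zmat3 and Mdm2 rose by 8.67% to 19.9%. Pmaip1, Sesn1 and Apaf1 fell, with changes of -23.3%, -21.6% and -9.56%. In all, 7 of the 32 genes were higher and 3 were lower at an adjusted p under 0.05 in edgeR's quasi-likelihood test. Of all 15932 genes tested, 19.2% passed, 9.72% being higher and 9.48% lower. The median log2 fold change was 0.03 over the 32 genes and 0.00 over all genes.

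Among the feedback regulators, Ccng1 (gene identifier 12450, chr11:40748552-40755309) encodes cyclin G1, a p53 target that recruits a phosphatase to MDM2. Ccng1 was at 102, 99.4 and 96.6 CPM with dDAVP, against 85.7, 81.3 and 81.2 CPM with vehicle. The libraries of the treatments did not overlap, and the log2 fold change was 0.26 ± 0.053 (SE, adjusted p = 0.0017, edgeR's quasi-likelihood test adjusted by Benjamini-Hochberg, as for all adjusted p-values below that name no other tool). Mdm2 (17246, chr10:117688875-117710758) was at 103, 94.9 and 99.3 CPM with dDAVP, against 92.7, 91.8 and 88.7 CPM with vehicle, a log2 fold change of 0.12 ± 0.036 (adjusted p = 0.025). All dDAVP libraries were above all vehicle libraries, but the gap between the groups was narrower than the spread within them. Trp53 itself was at 214, 229 and 219 CPM with dDAVP, against 233, 232 and 230 CPM with vehicle, with no overlap and a log2 fold change of -0.07 (adjusted p = 0.20). Mdm4, a relative of MDM2 that holds p53 inactive, and Ppm1d, the phosphatase WIP1 that switches off the damage response, had log2 fold changes of 0.01 and -0.06 and overlapping libraries. Trp53inp1, a nuclear cofactor of p53, had 0.20 ± 0.071 with no overlap and an adjusted p of 0.064.

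Of the growth arrest and survival genes, Gdf15 (23886, chr8:70629393-70632470) was at 22.5, 21.03 and 21.8 CPM with dDAVP, against 13.04, 13.3 and 11.2 CPM with vehicle. This was a log2 fold change of 0.80 ± 0.074 (adjusted p = 4.2e-07), and no dDAVP library came near a vehicle library. Btg2 (12227, chr1:134074865-134079155) was at 62.2, 67.2 and 63.8 CPM with dDAVP, against 47.8, 50.1 and 50.2 CPM with vehicle, a log2 fold change of 0.38 ± 0.044 (adjusted p = 6.3e-06). Its groups were likewise far apart. Zmat3 (22401, chr3:32334792-32365665), an RNA-binding protein of the p53 programme, was at 59.4, 54.7 and 51.2 CPM with dDAVP, against 49.0, 46.2 and 48.8 CPM with vehicle, a log2 fold change of 0.20 ± 0.050 (adjusted p = 0.0091). The groups did not overlap, although 1 dDAVP library lay close to the vehicle range. Cdkn1a (12575, chr17:29090979-29100722) was at 131, 134 and 128 CPM with dDAVP, against 128, 126 and 130 CPM with vehicle. The libraries overlapped, and its log2 fold change of 0.03 had a 95% interval from -0.04 to 0.11 (adjusted p = 0.56). Gadd45a, a growth arrest and damage gene, had a log2 fold change of 0.25 ± 0.087 (adjusted p = 0.056) and the polo-like kinase gene Plk2 had -0.16 ± 0.060 (adjusted p = 0.084). Phlda3, an inhibitor of AKT, and Plk3, another polo-like kinase, had 0.09 and 0.02.

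The cell death genes split. Aen (68048, chr7:78895927-78911209) was at 22.5, 21.6 and 22.6 CPM with dDAVP, against 17.2, 17.6 and 16.3 CPM with vehicle, a log2 fold change of 0.38 ± 0.055 (adjusted p = 6.5e-05). Bax (12028, chr7:45461695-45466903), the pore-forming protein of the mitochondrial outer membrane, was at 28.2, 31.7 and 29.5 CPM with dDAVP, against 26.4, 22.4 and 26.0 CPM with vehicle, a log2 fold change of 0.26 ± 0.069 (adjusted p = 0.014). Both genes were higher in every dDAVP library, Aen by a wide gap and Bax by a narrow one. Pmaip1 (58801), which encodes the BH3-only protein NOXA, ran the other way. It was at 26.2, 26.5 and 26.3 CPM with dDAVP, against 35.4, 34.3 and 33.3 CPM with vehicle, a log2 fold change of -0.38 ± 0.075 (adjusted p = 0.0013). Apaf1 (11783, chr10:90989311-91082743), the scaffold of the apoptosome, was at 80.8, 77.0 and 76.0 CPM with dDAVP, against 87.2, 86.0 and 85.4 CPM with vehicle, a log2 fold change of -0.14 ± 0.033 (adjusted p = 0.0039). Neither gene overlapped between treatments. Bbc3, which encodes the other classical BH3-only target PUMA, had a log2 fold change of -0.05 ± 0.097 with overlapping libraries. The remaining cell death genes, Fas, Tnfrsf10b, Eda2r, Pidd1, Perp, Ei24 and Trp53i11, did not pass, with log2 fold changes from -0.01 for Ei24 to 0.94 ± 0.59 for Eda2r.

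None of the 4 DNA repair genes passed. Xpc, Ddb2, Polk and Rrm2b had log2 fold changes of -0.11, 0.03, 0.02 and -0.01, of which Xpc, a damage sensor of nucleotide excision repair, had an adjusted p of 0.089 and libraries that did not overlap. Of the redox and metabolic genes, Sesn1 (140742, chr10:41810574-41908436), a sestrin that restrains mTORC1 and oxidants, fell. It was at 35.1, 35.6 and 36.3 CPM with dDAVP, against 45.1, 44.3 and 47.0 CPM with vehicle, a log2 fold change of -0.35 ± 0.045 (adjusted p = 2.0e-05), with a wide gap between the groups. Tigar, which lowers glycolytic flux, had 0.10 ± 0.068.

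When some single libraries were left out, 3 of these 10 calls were lost. Leaving a library out also makes its group smaller. Calls over all genes then ran from 2103 to 3250, against 3058 with all libraries kept. With control siRNA vehicle replicate 2 or 3 removed, the adjusted p of Mdm2 was 0.055 or 0.105, and with control siRNA dDAVP replicate 1 or 3 removed it was 0.147 or 0.0837. Zmat3 was lost without vehicle replicate 2 (0.052) or dDAVP replicate 1 (0.0675), and Bax without vehicle replicate 2 (0.085) or dDAVP replicate 2 (0.0913). Conversely, Gadd45a passed without vehicle replicate 2 (0.037) or dDAVP replicate 1 (0.0235), Fas and Eda2r without vehicle replicate 1 (0.0397 and 0.0423), Trp53inp1 without TAZ siRNA vehicle replicate 1 (0.0446), and Plk2 without TAZ siRNA vehicle replicate 1 (0.0433) or 3 (0.0396). With all libraries kept, Trp53inp1 passed with DESeq2 (0.0401), at a minimum count of 50 (0.0466), with the replicate block (0.0405) and in the compared groups alone (0.0381), Gadd45a with DESeq2 (0.0444) and a minimum count of 50 (0.0423), and Plk2 in the compared groups alone (0.0319). Gdf15, Btg2, Aen, Ccng1, Pmaip1, Sesn1 and Apaf1 passed with any single library left out.

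**Figure D2:**
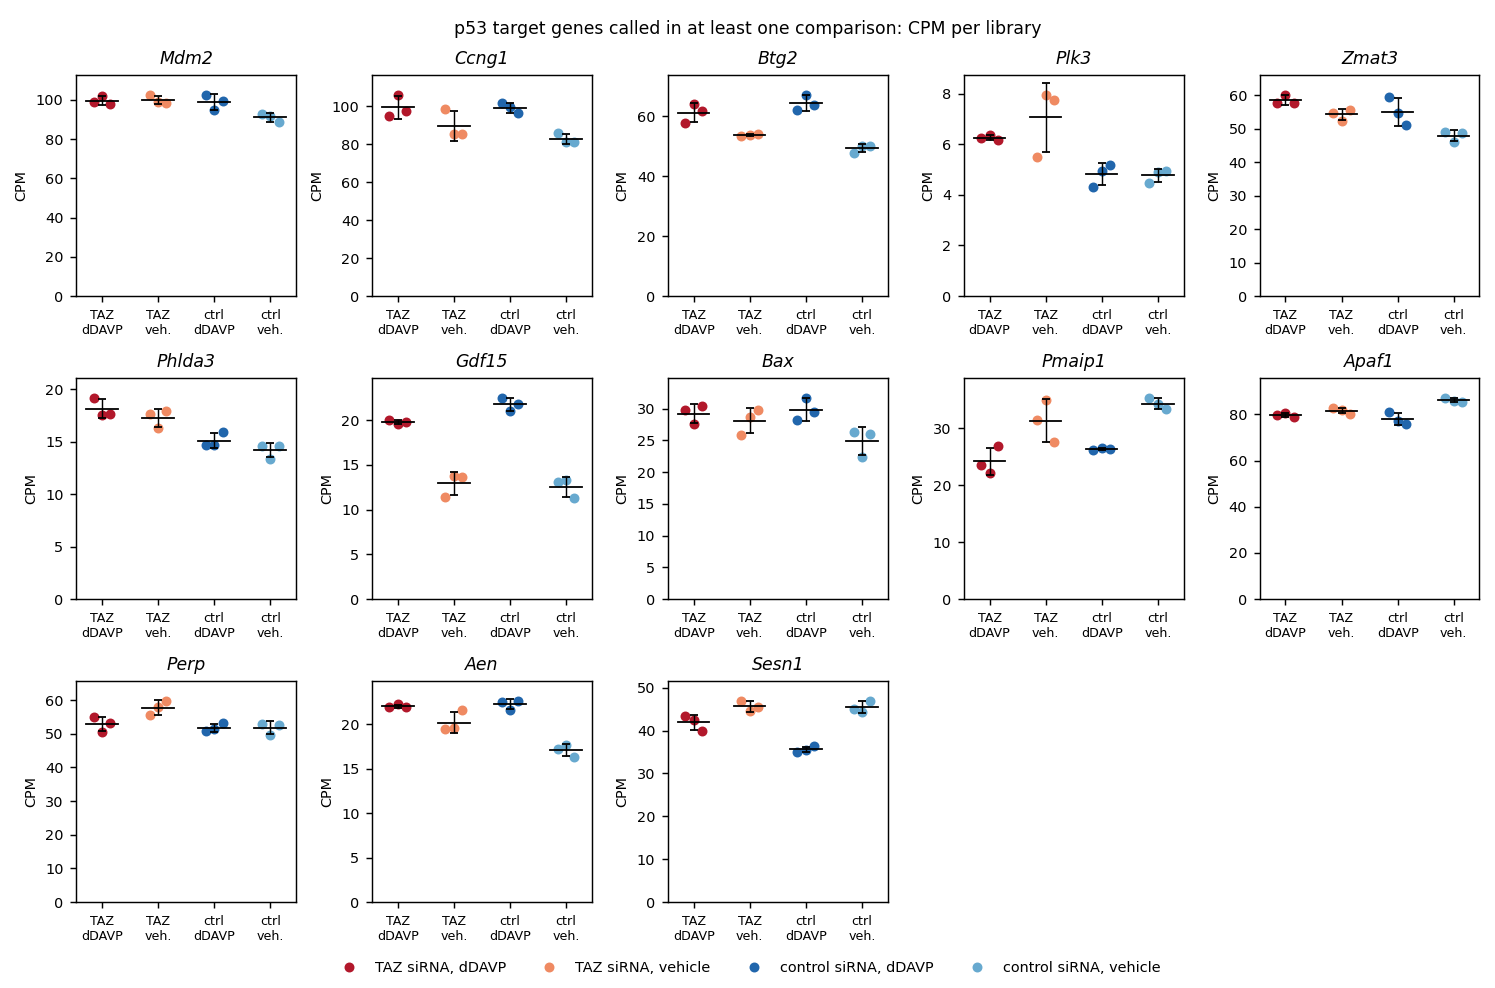
CPM in each library (points) of the 13 genes that passed in at least 1 comparison, with the mean and SD of each group of 3 libraries as bars, on linear axes from 0. Gdf15 lies higher and Pmaip1 lower with dDAVP under both siRNAs, and the Sesn1 libraries with control siRNA and dDAVP, at 35.1 to 36.3 CPM, lie below all the others.

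With TAZ siRNA, 3 of the 32 genes passed for dDAVP, which is 9.38%, against 10.8% of all genes (6.38% higher and 4.41% lower), so the count itself is near the background. Gdf15 was at 20.01, 19.6 and 19.8 CPM with dDAVP, against 11.4, 13.7 and 13.6 CPM with vehicle, a log2 fold change of 0.62 ± 0.074 (adjusted p = 1.7e-05). Btg2 was at 57.7, 64.0 and 61.8 CPM with dDAVP, against 53.5, 53.8 and 54.2 CPM with vehicle, a log2 fold change of 0.18 ± 0.044 (adjusted p = 0.010). Both rose without overlap, Gdf15 by a wide gap. Pmaip1 was at 23.5, 22.2 and 26.8 CPM with dDAVP, against 31.5, 35.0 and 27.6 CPM with vehicle, a log2 fold change of -0.38 ± 0.075 (adjusted p = 0.0026). It fell, but the highest dDAVP library and the lowest vehicle library were close. The other genes that had passed with control siRNA had log2 fold changes of 0.15 (Ccng1), 0.13 (Aen), 0.11 (Zmat3), 0.06 (Bax), -0.01 (Mdm2), -0.03 (Apaf1) and -0.12 (Sesn1), with adjusted p-values of 0.0849 or more. Among these, Ccng1 was at 94.7, 106 and 97.3 CPM with dDAVP, against 98.5, 85.2 and 85.1 CPM with vehicle. Mdm2 was at 98.8, 102 and 97.9 CPM with dDAVP, against 103, 99.0 and 98.5 CPM with vehicle. In both genes the libraries overlapped, for Ccng1 through the high vehicle replicate 1. Aen was at 21.9, 22.2 and 21.9 CPM with dDAVP, against 19.5, 19.6 and 21.5 CPM with vehicle. Zmat3 was at 57.6, 60.2 and 57.9 CPM with dDAVP, against 54.8, 52.5 and 55.8 CPM with vehicle. Sesn1 was at 43.4, 42.4 and 39.9 CPM with dDAVP, against 47.0, 44.5 and 45.5 CPM with vehicle. These 3 genes did not overlap between the treatments, although none of them passed the test. Bax was at 29.7, 27.6 and 30.4 CPM with dDAVP, against 25.9, 28.7 and 29.8 CPM with vehicle. Apaf1 was at 79.9, 80.7 and 79.0 CPM with dDAVP, against 82.7, 81.8 and 80.3 CPM with vehicle. Both overlapped. Perp, which is described below, was at 54.9, 50.6 and 53.2 CPM with dDAVP, against 55.6, 58.0 and 59.9 CPM with vehicle, without overlap (log2 fold change of -0.13 ± 0.045, adjusted p = 0.077). Cdkn1a was at 136, 127 and 132 CPM with dDAVP, against 124, 132 and 129 CPM with vehicle, and its log2 fold change of 0.04 had a 95% interval from -0.03 to 0.11. The count changed when some single libraries were left out. It was 7 without TAZ siRNA vehicle replicate 1, where Ccng1 (0.0041), Plk2 (0.0117), Plk3 (0.0453) and Perp (0.0439) also passed. It was 5 without control siRNA vehicle replicate 2, where Plk2 (0.047) and Eda2r (0.0404) passed, and Btg2 was lost without TAZ siRNA dDAVP replicate 2 (0.057). DESeq2 called 5, adding Plk2 (adjusted p = 0.028) and Perp (0.041), both lower. Plk2 passed too without the filter (0.0368) and at a minimum count of 50 (0.0462).

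**Figure D3:**
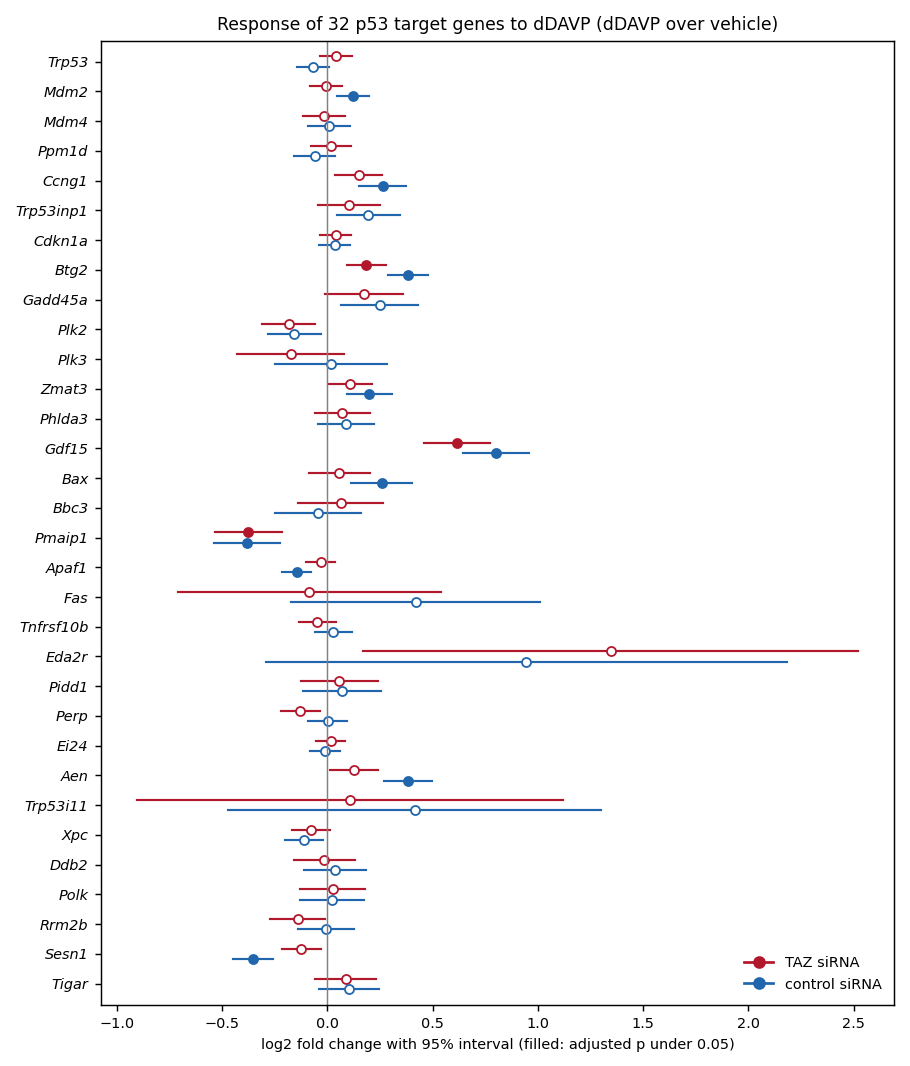
Log2 fold change of dDAVP over vehicle for each of the 32 genes, with its 95% interval, under TAZ siRNA (red, upper) and control siRNA (blue, lower), and filled points at an adjusted p under 0.05. Gdf15 at 0.62 and 0.80 and Pmaip1 at -0.38 and -0.38 are filled under both siRNAs, while the points of Cdkn1a lie at 0.04 and 0.03.

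Whether the dDAVP response differed between the siRNAs was tested by the difference of the 2 log2 fold changes, TAZ siRNA minus control siRNA. None of the 32 genes passed in edgeR or in DESeq2, against 0.0314% of all genes in edgeR, which is 5 genes. In edgeR 6 of the 32 genes (18.8%) and 1295 of all genes (8.13%) had an unadjusted p under 0.05. The 6 were Trp53, Mdm2, Btg2, Apaf1, Aen and Sesn1. The response of Aen was 0.26 lower with TAZ siRNA, a difference of -0.26 ± 0.077 with a 95% interval from -0.42 to -0.09 (adjusted p = 0.32). For Btg2 the difference was -0.20 ± 0.063 (adjusted p = 0.35) and for Mdm2 -0.12 ± 0.051 (adjusted p = 0.52). For Sesn1 it was 0.23 ± 0.064 (adjusted p = 0.28), for Apaf1 0.11 ± 0.046 (adjusted p = 0.52) and for Trp53 0.11 ± 0.051 (adjusted p = 0.59). The 95% interval of the difference ran from -0.40 to 0.04 for Gdf15 and from -0.22 to 0.23 for Pmaip1, so the responses of these genes were not shown to be equal or unequal. For Cdkn1a the interval was narrower, from -0.10 to 0.11.

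TAZ siRNA in vehicle-treated cells was followed by higher levels of 6 p53 targets and by lower levels of none. These were Plk3, Phlda3, Aen, Zmat3, Perp and Mdm2, and they rose by 48.2%, 21.8%, 18.4%, 13.2%, 11.7% and 9.82%. Of all genes, 6.3% passed, 3.19% being higher and 3.11% lower. The median log2 fold change was 0.05 over the 32 genes and 0.00 over all genes, and 16 of the 32 had an unadjusted p under 0.05, against 20.2% of all genes. Of these 16, Ppm1d and Apaf1 were lower, with log2 fold changes of -0.12 ± 0.046 and -0.08 ± 0.032 and no overlap (adjusted p = 0.15 and 0.17). Neither Trp53 nor Cdkn1a passed, with log2 fold changes of 0.00 for both and 95% intervals from -0.08 to 0.08 and from -0.07 to 0.08.

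Plk3 (12795, chr4:117128655-117133963), a stress-responsive polo-like kinase, was at 5.49, 7.96 and 7.75 CPM with TAZ siRNA, against 4.47, 4.90 and 4.93 CPM with control siRNA, a log2 fold change of 0.57 ± 0.12 (adjusted p = 0.0098). All TAZ siRNA libraries were above all control libraries, but replicate 1 lay well below the other TAZ siRNA libraries. Phlda3 (27280, chr1:135766085-135769134), which competes with AKT for membrane lipids, was at 17.6, 16.3 and 17.9 CPM with TAZ siRNA, against 14.6, 13.4 and 14.6 CPM with control siRNA, a log2 fold change of 0.28 ± 0.063 (adjusted p = 0.011). Aen was at 19.5, 19.6 and 21.5 CPM with TAZ siRNA, against 17.2, 17.6 and 16.3 CPM with control siRNA, a log2 fold change of 0.24 ± 0.055 (adjusted p = 0.012). Neither gene overlapped between the siRNAs. Zmat3 was at 54.8, 52.5 and 55.8 CPM with TAZ siRNA, against 49.0, 46.2 and 48.8 CPM with control siRNA, a log2 fold change of 0.18 ± 0.050 (adjusted p = 0.042). Perp (64058, chr10:18845071-18857073), a desmosomal membrane protein and p53 effector, was at 55.6, 58.0 and 59.9 CPM with TAZ siRNA, against 52.9, 49.5 and 52.8 CPM with control siRNA, a log2 fold change of 0.16 ± 0.045 (adjusted p = 0.041). Mdm2 was at 103, 99.0 and 98.5 CPM with TAZ siRNA, against 92.7, 91.8 and 88.7 CPM with control siRNA, a log2 fold change of 0.14 ± 0.036 (adjusted p = 0.032). These last 3 genes did not overlap either, with gaps of a few CPM. Just short of the threshold were Trp53inp1, at 0.24 ± 0.071 (adjusted p = 0.051), and the death receptor gene Tnfrsf10b, at 0.14 ± 0.042 (adjusted p = 0.051), both without overlap. Aen, Zmat3 and Mdm2 also passed for dDAVP with control siRNA, and both comparisons are made against the same 3 libraries of control siRNA and vehicle. Their mean levels were 20.2, 54.4 and 99.99 CPM with TAZ siRNA and vehicle, 22.2, 55.1 and 98.9 CPM with control siRNA and dDAVP, and 17.1, 48.0 and 91.1 CPM with control siRNA and vehicle.

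Each of these 6 calls was lost without some single library. The count was 0 without TAZ siRNA vehicle replicate 3 and 2 without TAZ siRNA vehicle replicate 2 or without control siRNA vehicle replicate 1, 2 or 3. Plk3 was lost without control siRNA vehicle replicate 1 or TAZ siRNA vehicle replicate 2 or 3 (adjusted p from 0.058 to 0.0742), Phlda3 without control siRNA vehicle replicate 2 or TAZ siRNA vehicle replicate 3 (0.051 to 0.0585), and Aen without replicate 3 of either vehicle group (0.0671 to 0.0780). Mdm2 was kept only without control siRNA dDAVP replicate 1 or 2 or TAZ siRNA dDAVP replicate 2 or 3, and otherwise had 0.051 to 0.125. Zmat3 was kept only without control siRNA dDAVP replicate 1 or 3 or TAZ siRNA dDAVP replicate 2, and otherwise had 0.0556 to 0.161. Perp was kept only without TAZ siRNA vehicle replicate 1 or TAZ siRNA dDAVP replicate 1 or 2, and otherwise had 0.0537 to 0.170. Fitted on the 2 compared groups alone, Mdm2 and Perp had adjusted p-values of 0.0509 and 0.0711. Trp53inp1 passed without control siRNA dDAVP replicate 1 (0.035), Plk2 without TAZ siRNA vehicle replicate 1 (0.0253), and Tnfrsf10b without TAZ siRNA vehicle replicate 1 (0.033) or TAZ siRNA dDAVP replicate 2 (0.0464). With all libraries kept, Trp53inp1 passed with DESeq2 (0.0182), without the filter (0.0477), at a minimum count of 50 (0.0401) and with the replicate block (0.032), and Tnfrsf10b passed with DESeq2 (0.0195), limma-voom (0.0464) and a minimum count of 50 (0.0402).

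With dDAVP in both groups, 2 of the 32 genes passed for TAZ siRNA, which is 6.25%, against 10.7% of all genes (5.77% higher and 4.97% lower), a share below the background. Sesn1 was at 43.4, 42.4 and 39.9 CPM with TAZ siRNA, against 35.1, 35.6 and 36.3 CPM with control siRNA, a log2 fold change of 0.23 ± 0.045 (adjusted p = 0.0027). Phlda3 was at 19.2, 17.6 and 17.7 CPM with TAZ siRNA, against 14.7, 14.7 and 15.9 CPM with control siRNA, a log2 fold change of 0.27 ± 0.063 (adjusted p = 0.010). Both were higher in each TAZ siRNA library than in any control siRNA library. Plk3 was at 6.24, 6.37 and 6.15 CPM with TAZ siRNA, against 4.33, 4.95 and 5.19 CPM with control siRNA, without overlap and with a log2 fold change of 0.38 ± 0.12 (adjusted p = 0.063). Trp53 was at 250, 234 and 233 CPM with TAZ siRNA, against 214, 229 and 219 CPM with control siRNA, also without overlap (0.11 ± 0.036, adjusted p = 0.052). Aen, Zmat3 and Mdm2 had log2 fold changes of -0.01, 0.09 and 0.01, and Cdkn1a had 0.01. Perp, at 0.03, overlapped, with the TAZ siRNA values given above, against 50.8, 51.5 and 53.1 CPM with control siRNA. Sesn1 passed with any library left out, whereas Phlda3 was lost without control siRNA dDAVP replicate 2 (0.053) or TAZ siRNA dDAVP replicate 1 (0.0742), and without that last library 1 call was left. Without TAZ siRNA vehicle replicate 1 there were 4 calls, with Trp53 (0.0438) and Plk3 (0.0144) added. Trp53 passed as well without control siRNA dDAVP replicate 2 (0.0476), and DESeq2 also called 4, adding Trp53 (adjusted p = 0.029) and Plk3 (0.042). Plk3 passed too with the replicate block (0.0327) and in the compared groups alone (0.0305).

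**Figure D4:**
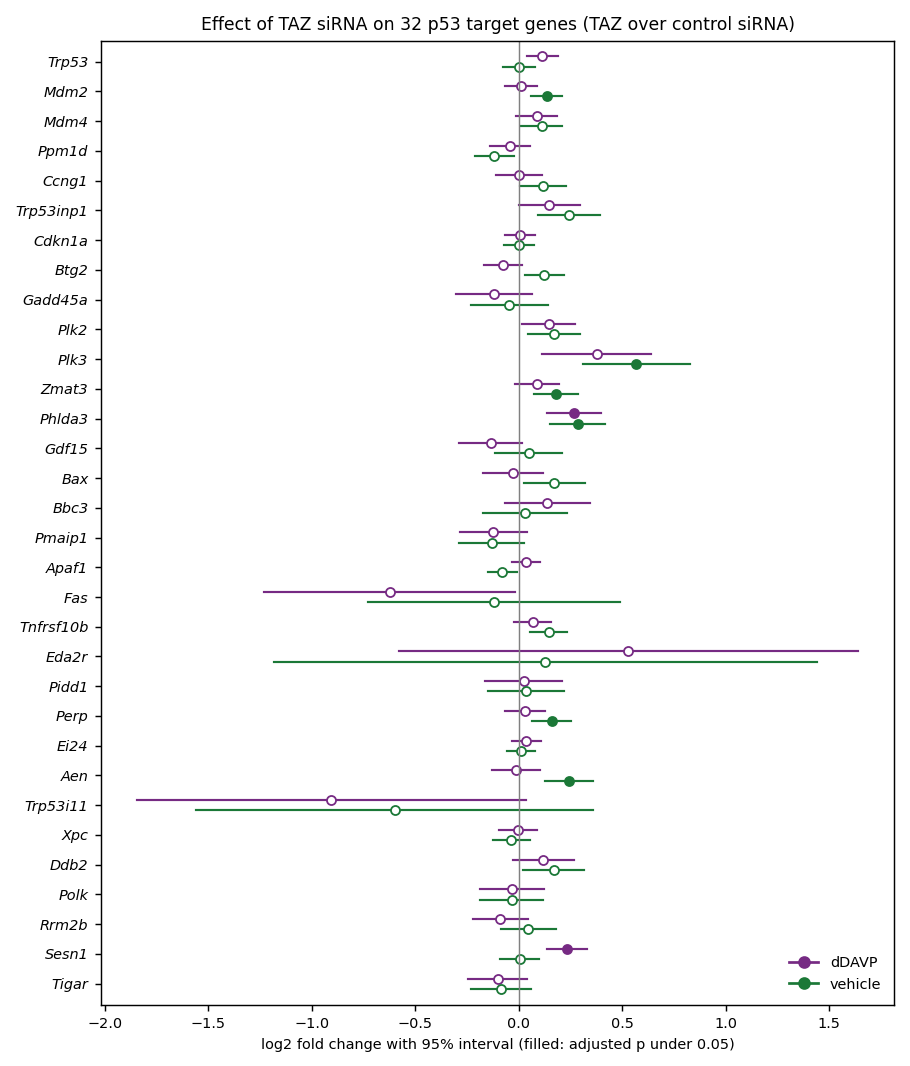
Log2 fold change of TAZ siRNA over control siRNA for each of the 32 genes, with its 95% interval, in cells with dDAVP (purple, upper) and with vehicle (green, lower), and filled points at an adjusted p under 0.05. Phlda3 is filled in both treatments at 0.27 and 0.28, and the other filled points belong to 1 treatment each.

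Of the 32 genes, 19 did not pass in any of the 5 comparisons, and for these the range over the 12 libraries and the lowest adjusted p over the comparisons are given. Among the regulators, Trp53 ranged from 214 to 250 CPM (lowest adjusted p = 0.052), Mdm4 from 182 to 216 CPM (0.19), Ppm1d from 49.1 to 56.2 CPM (0.15) and Trp53inp1 from 31.4 to 44.1 CPM (0.051). Among the arrest genes, Cdkn1a ranged from 124 to 136 CPM (0.55), Gadd45a from 8.2 to 11.2 CPM (0.056) and Plk2 from 55.5 to 78.3 CPM (0.060). Of the death receptor genes, Tnfrsf10b, the mouse TRAIL receptor, ranged from 49.3 to 58.0 CPM (0.051), Fas from 0.50 to 1.12 CPM (0.19) and Eda2r from 0 to 0.68 CPM (0.14). Of the other cell death genes, Bbc3 ranged from 7.06 to 9.43 CPM (0.42), Pidd1, which nucleates a caspase-2 complex, from 15.0 to 19.5 CPM (0.65), Ei24 from 112 to 119 CPM (0.56) and Trp53i11 from 0.066 to 0.48 CPM (0.22). The repair genes were the damage sensors Xpc, at 39.3 to 45.3 CPM (0.089), and Ddb2, at 19.0 to 24.7 CPM (0.17), the translesion polymerase gene Polk, at 20.3 to 24.2 CPM (0.84), and Rrm2b, a ribonucleotide reductase subunit gene, at 26.3 to 32.1 CPM (0.17). Tigar ranged from 10.5 to 12.8 CPM (0.34). Eda2r was at 0.47, 0.64 and 0.68 CPM with TAZ siRNA and dDAVP, against 0.23, 0.21 and 0.26 CPM with TAZ siRNA and vehicle. The groups did not overlap, but the log2 fold change of 1.35 ± 0.56 had an adjusted p of 0.14 at these low counts, and of 0.0196 when the 2 compared groups were fitted alone. Exons of Cdkn1a, Ddb2, Ei24, Gadd45a, Plk3, Rrm2b and Tigar overlap a gene on the other strand in the GENCODE M21 annotation, and those of Bax a gene on the same strand. The sources used here do not state whether counting used the strand, so reads of such neighbours cannot be told apart. Reads of Trp53 can likewise be shared with its processed pseudogene.

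Other p53 targets outside the 32 showed both directions as well. Of 26 tested, 3 were higher and 4 lower for dDAVP with control siRNA, 2 higher and 3 lower for dDAVP with TAZ siRNA, 5 higher and 2 lower for TAZ siRNA with vehicle, and 3 higher and 1 lower for TAZ siRNA with dDAVP. These are 26.9%, 19.2%, 26.9% and 15.4% of the list, against 19.2%, 10.8%, 6.3% and 10.7% of all genes. Sesn2, a sestrin that also answers to ATF4, had the largest rise of this list for dDAVP with either siRNA, at a log2 fold change of 0.54 ± 0.055 with TAZ siRNA (adjusted p = 2.5e-06) and 0.62 ± 0.055 with control siRNA (2.5e-07). Dram1, a lysosomal gene of p53-linked autophagy, fell by 0.58 and 0.64 in the same comparisons (adjusted p = 0.00012 and 3.3e-05). The ephrin receptor gene Epha2 fell by 0.30 and 0.27, and Susd6 rose by 0.16 and 0.20. With TAZ siRNA, Dram1 and Epha2 instead rose, by 0.37 and 0.28 with vehicle and by 0.44 and 0.24 with dDAVP. The mTORC1 inhibitor gene Ddit4 fell by 0.26 with vehicle and 0.17 with dDAVP.

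Of 24 tested regulators of p53, 2 were higher and 4 lower for dDAVP with control siRNA, none passed for dDAVP with TAZ siRNA, 1 was higher for TAZ siRNA with vehicle, and 4 were higher for TAZ siRNA with dDAVP. In all, 25.0%, 0%, 4.17% and 16.7% of this list passed in that order, against 19.2%, 10.8%, 6.3% and 10.7% of all genes. For dDAVP with TAZ siRNA 6 of the list had an unadjusted p under 0.05, which is 25.0%, near the 23.9% of all genes. Hipk2, a kinase that phosphorylates p53, fell with dDAVP under control siRNA by 0.27 (adjusted p = 0.00020). Cdkn2a, whose ARF product holds MDM2, rose by 0.16 (0.049), and Rpl11, a ribosomal protein that binds MDM2, by 0.24 (0.019). Ppp1r13l, which encodes the p53 inhibitor iASPP, rose with TAZ siRNA by 0.30 with dDAVP (0.0014) and by 0.19 with vehicle (0.040).

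Of 24 tested cell cycle genes that p53 is known to repress through p21 and the DREAM complex, 11 fell and none rose for dDAVP with TAZ siRNA, and 11 fell and none rose for dDAVP with control siRNA, against 4.41% and 9.48% of all genes lower. Their median log2 fold changes were -0.13 and -0.13, against 0.00 over all genes. Whether p53, p21 or DREAM takes part in these falls was not tested. With control siRNA, Bub1, a spindle checkpoint kinase gene, fell by 0.32 (adjusted p = 5.3e-05), the mitotic factor gene Foxm1 by 0.30 (3.9e-05) and Top2a, a topoisomerase gene, by 0.27 (4.8e-06), while Cdkn1a had the log2 fold change of 0.03 given above. For TAZ siRNA, 1 was higher and 1 lower with vehicle, and 4 were higher and none lower with dDAVP, among them Foxm1 at 0.28 (adjusted p = 0.00026). In all, 8.33% of this list passed with vehicle and 16.7% with dDAVP, against 6.3% and 10.7% of all genes. No gene of these 3 lists passed for the difference of the responses in edgeR, where 3 of each list had an unadjusted p under 0.05.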

How the data were processed

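RNA sequencing of 12 libraries, 3 per group, was analysed from the deposited gene table, and groups were taken from the sample labels. The authors deposited read counts and TPM per gene, per the file headers. The counts were taken as not normalised and are called estimated because of the check on whole numbers below. Transcript estimated counts and FPKM values, also deposited by the authors per the file headers, served only to check the gene counts, which differed from the transcript sums in 12 of 549324 values. In small transcript counts, 85.6% of the underlying estimates were not whole (tolerance 0.05) and had been rounded up, so no further rounding was needed. Bowtie 0.12.2 and the builds mm8 and mm10 are listed in the submitters' processing notes without a role, and the labels' protocols name a stranded and another TruSeq kit. No source used here gives the counting tool. The analysis left aside 24 further columns of values for single samples.

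Counts were fitted in R 4.3.3 with edgeR 4.0.16 (TMM factors, filterByExpr with a minimum count of 10, robust quasi-likelihood, 1 mean per group, all 12 libraries). Of 45777 genes 15932 were tested, which hold 99.98% of counts. The common coefficient of biological variation was 5.11%. A gene was called at a Benjamini-Hochberg adjusted p under 0.05 over all genes tested. The SE was derived from the log2 fold change and its F statistic. A count of 3 in 1 library corresponds to 0.0486 to 0.0665 CPM of the library total without the TMM factor, a floor for counting error alone. Any pair of libraries from the same group differed by more than counting noise (chi-square over its degrees of freedom, 4.25 to 13.5), and all were kept. Alternatives were RLE size factors, DESeq2 1.42.0, limma-voom (limma 3.58.1), no filter, a minimum count of 50, a replicate block, the compared groups alone and each library left out. An adjusted p that DESeq2 did not give was left out.

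The 32 genes and the other lists were chosen with earlier results of these data known. All 32 genes are accounted for, those called in any comparison with their value in every library, and from each other list at most the 6 called genes with the largest fold change were eligible to be named, beside Wwtr1 and Aqp2. Promoters are from RefSeq on GRCm38.p6. Gene coordinates span all transcript models of the gene in the deposited transcript table (mm10). Splits between transcript models were not used.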

Additional observations from a re-analysis of the deposited data

How the results depend on the processing

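Single genes were followed under the alternatives for the 36 pairs of gene and comparison called in at least 1 setting. Of their values under the alternatives, 592 stayed on the same side of the threshold, 46 lost and 43 gained a call. No value called in the main fit or in the alternative reversed its direction. The number of p53 targets called moved by over 1.5 times only with DESeq2, to 5 for dDAVP with TAZ siRNA and to 4 for TAZ siRNA with dDAVP, and when single libraries were left out. Those ranges were 8 to 12 for dDAVP with control siRNA, 2 to 7 for dDAVP with TAZ siRNA, 0 to 7 for TAZ siRNA with vehicle, 1 to 4 for TAZ siRNA with dDAVP, and 0 to 0 for the difference of the responses. Over all genes the left-out ranges were 2103 to 3250, 1118 to 1752, 410 to 1435, 1049 to 1912 and 3 to 16 in that order. The 5 genes called for the difference became 87 with DESeq2, 12 with no filter and 14 at a minimum count of 50. The cause of these moves was not tested. Whether replicate numbers pair the libraries was not settled. Deviations of same-numbered libraries correlated at -0.043 to 0.080 (median 0.030), against -0.058 to 0.065 (median -0.019) for libraries with other numbers. Of 12 libraries, 7 correlated best with their own number and 5 with another. Each was compared with more libraries of other numbers than of its own, so an even split is not the baseline. A replicate block gave 11, 3, 7, 3 and 0 called p53 targets in the order above, and 2983, 1663, 968, 1690 and 6 genes in all. Depth limits Fas, Eda2r and Trp53i11, with counts as low as 26, 0 and 3 in a library.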
